A study of Mus musculus with 9 samples.

Results

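The genes described here encode the machinery that copies nuclear DNA. They are 44 named genes, taken from a list that covers origin recognition and loading, the helicase and its activators, polymerases, the sliding clamp, single-stranded DNA binding, lagging strand processing, and the factors that rebuild chromatin behind the fork. All 44 were among the 16012 genes with reads on a splice junction in mouse liver. In livers with a YAP transgene, 39 of the 43 members that could be tested had a fitted level above that of wild type livers. Of these, 10 passed the test across all genes, and 1 member, Mcm10, passed it in the opposite direction. In livers that also carried the Lsd1 knockout, 40 of 43 members lay below the YAP livers, and none of the 43 passed edgeR's test.

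DNA replication starts at origins marked by the origin recognition complex, where Cdc6 and Cdt1 load the MCM2-7 helicase before S phase. In S phase Cdc45, the GINS complex and Mcm10 turn the loaded helicase on, polymerase alpha and primase lay down primers, and polymerases delta and epsilon extend them while held by the PCNA clamp. Hepatocytes of an adult liver rarely divide, and most of these genes are known to be transcribed under control of E2F factors when cells enter S phase.

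The series examined gene expression changes caused by YAP and LSD1 in the liver. YAP is the transcriptional coactivator at the end of the Hippo pathway, and LSD1, the product of Kdm1a, is a histone lysine demethylase. Livers came from C57BL/6 mice in 3 groups of 3 libraries: wild type (WT), YAP transgenic (YAP), and YAP transgenic with Lsd1 knockout (YAP_Lsd1ko). Every mouse, WT included, received an intraperitoneal AAV8 vector with Cre behind an ApoE/ATT1 promoter, and the protocol gives 30 mg/L doxycycline in the drinking water for 14 days. No group had the Lsd1 knockout without the transgene. Whether each library is a separate animal is not in the labels, so p-values measure the spread between libraries, which may be technical. The promoter behind the YAP transgene is not in the labels either. Because whole liver was sequenced, more dividing cells and more RNA per cell cannot be told apart.

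The data were uniquely mapped reads crossing splice junctions, of which 6843921 to 9830999 per library lay on annotated junctions. Levels are given as CPM, the reads on a gene's junctions scaled to a common total with TMM factors. Members took 3749 to 14179 reads per library. A level in CPM grows with the number of introns, so levels of different genes are compared below only per junction.

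The labels were checked first. Yap1 junction reads stood at 19.8, 19.3 and 17.4 CPM in the 3 WT libraries, at 78.6, 66.8 and 78.8 CPM in YAP, and at 47.7, 35.2 and 30.4 CPM in YAP_Lsd1ko. The transgene group was thus above WT in every library, and the YAP_Lsd1ko libraries lay between both groups (edgeR adjusted p = 0.0213 against YAP). Kdm1a stood at 30.1, 38.3 and 31.3 CPM in WT, at 36.7, 42.7 and 46.2 CPM in YAP, and at 15.8, 35.4 and 25.3 CPM in YAP_Lsd1ko. The library labelled YAP_Lsd1ko replicate 2 was therefore at the WT level of Kdm1a. The deleted part of Kdm1a is not given in the labels, so reads outside it could remain in a knockout. This library also had the lowest summed level of the members in its group, 645 CPM. For each YAP_Lsd1ko comparison some results without it are given below, and all other values include it.

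The 44 members summed to 609, 925 and 771 CPM in the WT libraries. In YAP the sums were 1741, 1107 and 1400 CPM. In YAP_Lsd1ko they were 1035, 645 and 874 CPM. Every YAP library thus lay above every WT and every YAP_Lsd1ko library, and the WT and YAP_Lsd1ko libraries overlapped. WT replicate 1 was the lowest of all 9 libraries, and without Mcm10 its sum was 491 CPM.

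**Figure D1:**
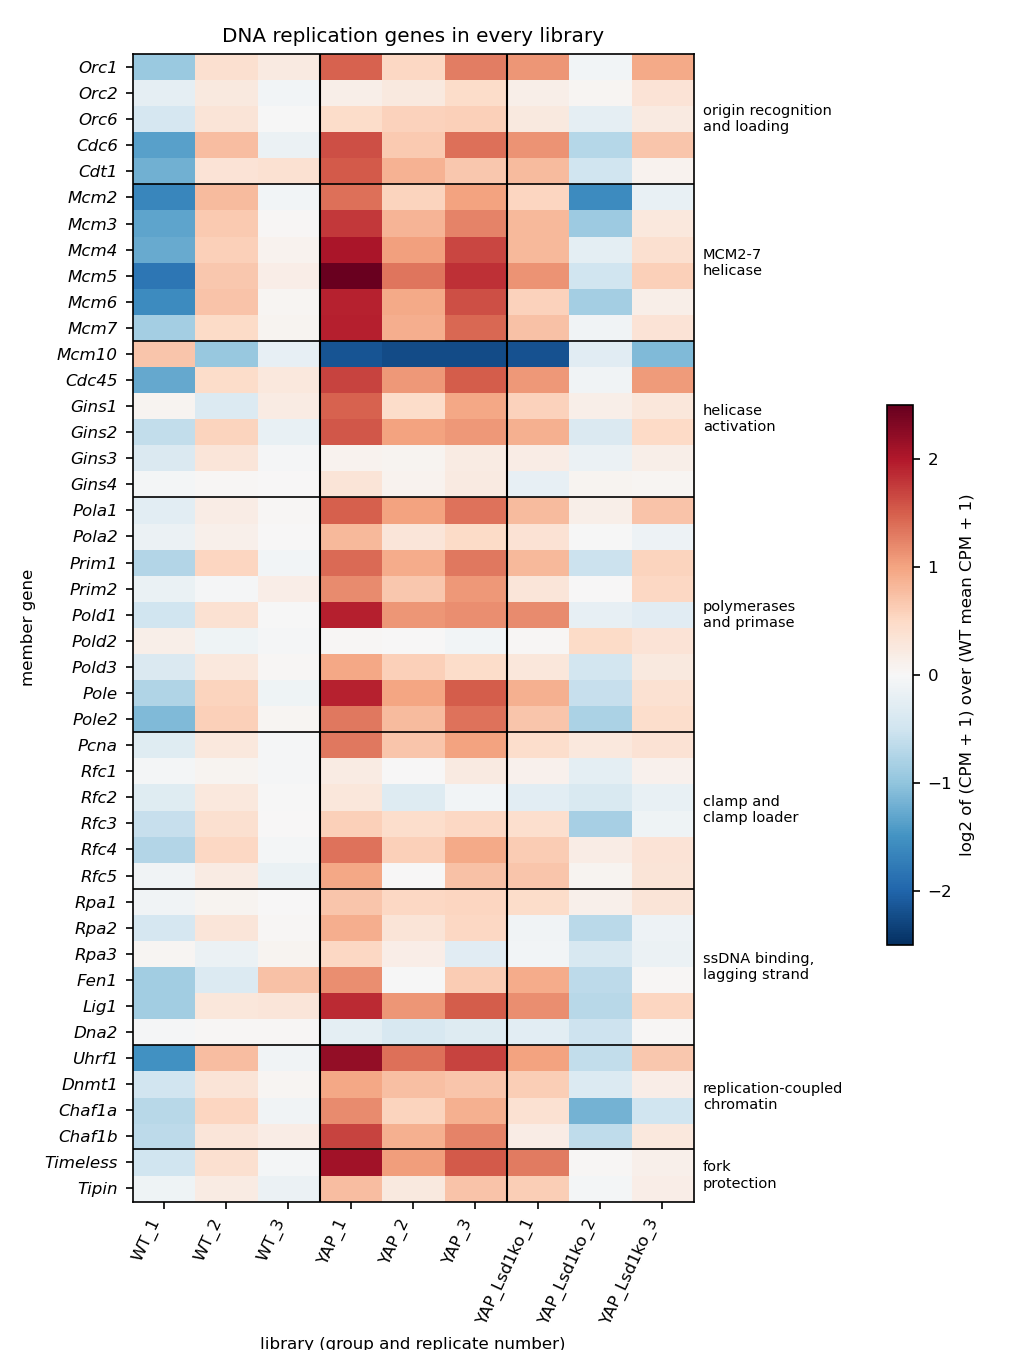
Level of each of the 44 members in each of the 9 libraries, as log2 of CPM plus 1 over the WT mean CPM plus 1. Rows are members grouped by role, columns are libraries, red is above and blue below the WT mean. The YAP columns are red in most rows, with Mcm10 the clear exception, and the libraries labelled WT replicate 1 and YAP_Lsd1ko replicate 2 are the palest or bluest of their groups in most rows.

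The first comparison asked what the YAP transgene did to these genes. A gene is said to be called, to rise or to fall where its edgeR adjusted p was under 0.05, and calls by DESeq2 are named as such. Of 43 members tested, 10 were higher in YAP than in WT: Mcm4, Mcm7, Gins1, Pola1, Prim2, Pole, Pcna, Rpa1, Chaf1b and Timeless. Among all 10897 genes tested, 7.44% were called higher. The remaining call, Mcm10, was lower, against 10% of all genes. The fitted log2 fold change had a median of 1.08 over the members, beside 0.00 over all genes tested. It was above 0 for 39 members (50.0% of all genes) and below 0 for Mcm10, Pold2, Rfc2 and Dna2. All 3 YAP libraries lay above all 3 WT libraries for 32 members (21.5% of all genes), and all 3 lay below for Mcm10 and Dna2 (22.8% of all genes).

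The number called depended on single libraries more than the direction did. Pola1, Prim2, Pcna and Rpa1 stayed called when any 1 library was left out. Without WT replicate 1, WT replicate 3, YAP replicate 1 or YAP replicate 3 in turn, they were the 4 members still called, and Mcm10 lost its call each time. Over these 4 fits 2.49% to 3.99% of all genes were called higher. Mcm10 also lost its call without YAP replicate 2 (edgeR adjusted p = 0.0648). Without all 3 libraries numbered 3, edgeR called no gene at all. DESeq2 called 22 members higher (10.7% of all genes) and Mcm10 lower (12.3%). Its calls beyond the 10 of edgeR were Mcm3, Mcm5, Mcm6, Gins2, Cdc45, Pold1, Pold3, Prim1, Rfc4, Lig1, Dnmt1 and Uhrf1. Scaling by library size alone raised the median log2 fold change of all genes from 0.00 to 0.31 and called 23 members higher (17.7% of all genes) and 1 lower (5.63%), so part of that larger count came with the scale. Under that scaling 75.9% of all calls were higher, against 42.7% with TMM.

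Promoters are shown for the called members with the smallest adjusted p that have an entry in RefSeq's table of promoters (Pola1, Pcna, Rpa1) and for the member whose YAP and WT levels were most alike and that has one (Pold2). Mcm7 and Mcm10 were added after their values were seen, Mcm7 because it is a called member whose window holds the searched words, and Mcm10 because it was the member that fell. Each window has 300 bases around an annotated start, from the RefSeq table for GRCm38.p6, written on the strand of the gene. Capitals mark a match to 1 of 4 words of the E2F site, TTTCCCGC, TTTCGCGC, TTTGCCGC or TTTGGCGC, or to its reverse complement.
Pola1, chrX:93632106-93632405, minus strand: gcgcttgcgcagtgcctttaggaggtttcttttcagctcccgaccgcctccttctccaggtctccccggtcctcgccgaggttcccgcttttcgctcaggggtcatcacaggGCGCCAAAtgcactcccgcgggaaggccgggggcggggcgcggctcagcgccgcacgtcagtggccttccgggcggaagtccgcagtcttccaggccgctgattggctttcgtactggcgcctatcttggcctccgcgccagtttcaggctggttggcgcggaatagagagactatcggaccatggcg
Mcm7, chr5:138171834-138172133, minus strand: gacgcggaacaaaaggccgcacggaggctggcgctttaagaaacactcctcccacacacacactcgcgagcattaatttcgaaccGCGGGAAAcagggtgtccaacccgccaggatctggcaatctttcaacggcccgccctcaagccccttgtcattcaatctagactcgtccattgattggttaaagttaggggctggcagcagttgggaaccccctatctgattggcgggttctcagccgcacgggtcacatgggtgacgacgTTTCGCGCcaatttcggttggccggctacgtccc
Pcna, chr2:132253131-132253430, minus strand: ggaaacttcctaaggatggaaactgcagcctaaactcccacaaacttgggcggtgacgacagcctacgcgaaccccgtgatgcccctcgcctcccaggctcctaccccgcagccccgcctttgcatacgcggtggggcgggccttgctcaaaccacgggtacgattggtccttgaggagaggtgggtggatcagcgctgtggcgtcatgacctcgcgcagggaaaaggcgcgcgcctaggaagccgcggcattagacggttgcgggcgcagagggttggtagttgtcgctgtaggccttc
Rpa1, chr11:75348334-75348633, minus strand: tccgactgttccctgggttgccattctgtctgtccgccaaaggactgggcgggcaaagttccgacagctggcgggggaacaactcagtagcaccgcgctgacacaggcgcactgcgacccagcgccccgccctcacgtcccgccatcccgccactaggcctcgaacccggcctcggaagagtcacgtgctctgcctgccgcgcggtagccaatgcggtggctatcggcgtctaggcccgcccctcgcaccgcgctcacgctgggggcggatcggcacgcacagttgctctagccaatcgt
Pold2, chr11:5878207-5878506, minus strand: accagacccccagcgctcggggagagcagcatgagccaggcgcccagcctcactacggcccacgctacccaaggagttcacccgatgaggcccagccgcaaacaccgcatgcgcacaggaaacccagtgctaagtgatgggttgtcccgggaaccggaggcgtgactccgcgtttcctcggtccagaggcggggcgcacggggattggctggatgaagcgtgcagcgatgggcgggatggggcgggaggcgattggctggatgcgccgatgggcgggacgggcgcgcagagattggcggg
Mcm10, chr2:5012742-5013041, minus strand: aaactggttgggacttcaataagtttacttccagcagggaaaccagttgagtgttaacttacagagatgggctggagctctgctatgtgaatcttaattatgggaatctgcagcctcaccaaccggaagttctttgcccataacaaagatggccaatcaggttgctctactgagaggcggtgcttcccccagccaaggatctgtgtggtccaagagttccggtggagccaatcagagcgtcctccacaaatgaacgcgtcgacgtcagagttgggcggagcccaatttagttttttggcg
Pola1 held 1 word and Mcm7 held 2, and the windows of Pcna, Rpa1, Pold2 and Mcm10 held none of these letters. Of 44 members, 36 had a window, and 16 of those 36 (44.4%) had a word in at least 1 window, against 2.60% of the 27025 genes in the table. The 16 were Cdc6, Cdt1, Dnmt1, Gins3, Lig1, Mcm3, Mcm5, Mcm6, Mcm7, Orc1, Pola1, Pold1, Pold3, Pole2, Rfc3 and Uhrf1. Among the 7 called members with a window, Mcm7 and Pola1 held a word. A match describes letters in a window and was not tied to binding of any factor in these livers.

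Origin recognition and loading genes lay above WT in YAP in all 5 cases, with a median log2 fold change of 1.38. None was called by edgeR or DESeq2, and 2 had an unadjusted p under 0.05, a share near that of all genes (34.4%). Orc6, a subunit of the origin recognition complex, was read at 6.83, 12.1 and 9.32 CPM in WT, 13.3, 14.5 and 14.7 CPM in YAP, and 11.3, 7.94 and 11.2 CPM in YAP_Lsd1ko. The YAP libraries were close to each other and above both other groups, yet the difference from WT did not pass (log2 0.59, SE 0.23, edgeR adjusted p = 0.103). Orc1, the ATPase subunit of the complex, had the highest estimate of the role, 3.44-fold, on only 155 reads in all libraries, and its WT replicate 1 had none. Cdc6, the loading ATPase, had a WT library at 5.54 CPM above its lowest YAP library, so the groups overlapped (2.85-fold). Cdt1, its partner in loading the helicase, did not overlap, at 0.325 to 2.97 CPM in WT and 3.89 to 7.86 CPM in YAP (2.59-fold, edgeR adjusted p = 0.164). Orc2, another subunit, differed least, by 1.23-fold.

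The 6 subunits of the MCM2-7 helicase, the ring that unwinds the duplex, had a median log2 fold change of 1.55 against WT, the highest of the 8 roles. Mcm4 was read at 6.18, 25.0 and 17.4 CPM in WT, 69.9, 34.1 and 53.8 CPM in YAP, and 29.0, 13.6 and 21.7 CPM in YAP_Lsd1ko. Mcm7 was read at 11.1, 29.5 and 21.9 CPM in WT, 83.1, 39.8 and 57.8 CPM in YAP, and 35.3, 19.5 and 26.5 CPM in YAP_Lsd1ko. For both, every YAP library exceeded every library of the other groups, and WT replicate 1 was the lowest of all. Mcm4 rose by 3.23-fold against WT (log2 1.69, SE 0.48, edgeR adjusted p = 0.0406) and Mcm7 by 2.88-fold (log2 1.53, SE 0.39, edgeR adjusted p = 0.0282). Mcm6, the subunit with the highest level per junction in WT, stood at 15.9, 80.9 and 51.2 CPM in WT, 190, 95.8 and 153 CPM in YAP, and 74.3, 26.8 and 54.4 CPM in YAP_Lsd1ko. Its groups did not overlap either, but the WT libraries were far apart and the test was missed (2.96-fold, edgeR adjusted p = 0.0831). Mcm5 had the largest estimate of all members, 3.98-fold, from 21.1 ± 14.6 CPM in WT to 84.5 ± 34.1 CPM in YAP (SD, n = 3), with an edgeR adjusted p of 0.0567. Mcm3 (2.58-fold) did not overlap between the groups and Mcm2 (2.08-fold) did.

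The same 6 subunits were lower in YAP_Lsd1ko than in YAP, without overlap between the libraries of the 2 groups for any of the 6. Their estimates ran from log2 -1.49 for Mcm6 to -1.13 for Mcm3. None was called by edgeR or DESeq2, and 4 had an unadjusted p under 0.05. Across all genes tested, 11.5% lay lower without overlap in this comparison. Both comparisons use the YAP libraries, so their values are set side by side and are not independent of each other.

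Among the helicase activators, Gins1 rose and Mcm10 fell. Gins1, a subunit of the GINS complex, was read at 6.66, 4.79 and 7.43 CPM in WT, 19.2, 9.07 and 13.3 CPM in YAP, and 9.84, 7.11 and 7.86 CPM in YAP_Lsd1ko. All YAP libraries lay above WT, and YAP replicate 2 lay within the YAP_Lsd1ko range (2.19-fold against WT, log2 1.13, SE 0.29, edgeR adjusted p = 0.0296). Gins2, of the same complex, averaged 3.04 ± 1.71 CPM in WT and 8.48 ± 2.02 CPM in YAP (SD, n = 3; edgeR adjusted p = 0.0554). Cdc45, which joins GINS on the helicase, went from 7.32 ± 4.29 to 21.8 ± 4.77 CPM (SD, n = 3; edgeR adjusted p = 0.0580). Gins4 differed by only 1.17-fold. Gins3 had 25 reads in all libraries together and was not tested.

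Mcm10, a scaffold that binds the activated helicase and polymerase alpha, was read at 118, 37.3 and 63.4 CPM in WT, 15.5, 14.8 and 14.7 CPM in YAP, and 15.4, 60.0 and 33.6 CPM in YAP_Lsd1ko. The YAP libraries were nearly equal to each other and below all WT libraries, and YAP_Lsd1ko replicate 1 was as low as YAP. Summed over its junctions, Mcm10 fell by 2.28 on the log2 scale against WT (4.87-fold lower, SE 0.52, edgeR adjusted p = 0.0193). Without WT replicate 1 the estimate was -1.74 on that scale with an edgeR adjusted p of 0.0560. Of the WT and YAP libraries left out singly, only WT replicate 2 left Mcm10 called (edgeR adjusted p = 0.0142). Against YAP, YAP_Lsd1ko was 2.41-fold higher (log2 1.27), with an edgeR adjusted p of 0.239. Without the library labelled YAP_Lsd1ko replicate 2 this estimate was log2 0.70, with an edgeR adjusted p of 0.582.

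The fall of Mcm10 was not the same along the gene. Mcm10 lies on the minus strand of chromosome 2, from 4989714 to 5012791 (GRCm38). Reads fell on 18 junctions of its protein-coding transcript with most introns, and these are described here. The annotation holds several models with retained introns that start inside the gene. The starts of the 2 of them that reach 4990724, where 1 of the protein-coding models ends, lie at 5001558 and 4995894 and divide the junctions into a block on the promoter side with 7 junctions, a middle block with 6 and a 3′ block with 5. These 2 starts and the blocks were chosen after the values were seen, so they carry no test. On the promoter side the WT libraries had 0.163, 0.621 and 0.347 CPM per junction, the YAP libraries 0.719, 0.731 and 0.660, and the YAP_Lsd1ko libraries 0.864, 0.189 and 0.446. In the 3′ block the WT libraries had 20.4, 4.94 and 9.97 CPM per junction, the YAP libraries 1.28, 1.23 and 1.29, and the YAP_Lsd1ko libraries 0.996, 8.63 and 4.65.

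Promoter-side reads of Mcm10 were thus higher in every YAP library than in every WT library, while 3′ reads were lower in every YAP library. In means, the promoter side went from 0.377 ± 0.230 to 0.703 ± 0.0379 CPM per junction (SD, n = 3; log2 ratio 0.90), the middle block from 1.92 ± 0.606 to 0.622 ± 0.0483 (log2 ratio -1.63), and the 3′ block from 11.8 ± 7.87 to 1.27 ± 0.0296 (log2 ratio -3.22). The 3′ block had the most reads per junction in both groups, and its lead over the other blocks was far larger in WT than in YAP. The promoter side rests on 7 to 29 reads per WT library and 38 to 44 per YAP library. Within WT, the library with the most 3′ reads, replicate 1, had the fewest promoter-side reads, and the same held in YAP_Lsd1ko for the library labelled replicate 2. The gene's full-length promoter window, printed above, held no E2F word. The window's last letters match the start of TTTGGCGC, and the base beyond its edge was not searched.

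**Figure D2:**
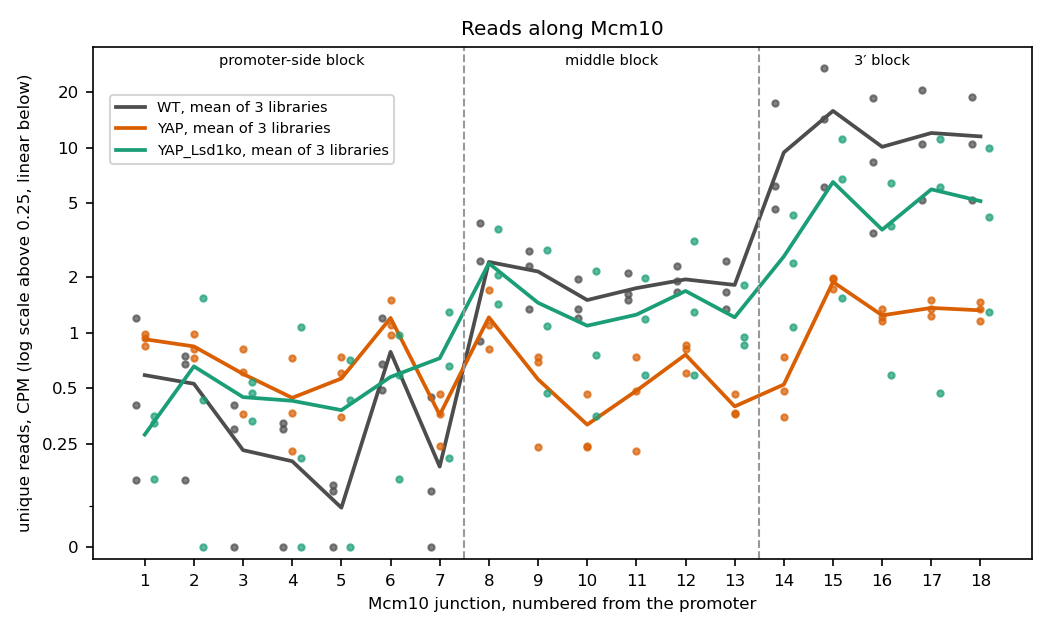
Reads at each of 18 Mcm10 junctions, numbered from the promoter, in CPM on a scale that is logarithmic above 0.25. Points are libraries, lines are means of 3 libraries, and dashed lines separate the 3 blocks. The WT line is below the YAP line over junctions 1 to 7 and far above it over junctions 14 to 18.

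Some marker genes of other cells were ordered across libraries much like the 3′ reads of Mcm10. The 8 erythroid markers summed to 249, 28.2 and 125 CPM in WT, to 23.8, 21.3 and 22.4 CPM in YAP, and to 56.2, 180 and 103 CPM in YAP_Lsd1ko. Nearly all of it was Alas2, the erythroid enzyme of haem synthesis, with 246, 26.4 and 124 CPM in WT and 16.8 to 17.9 CPM in YAP. Hba-a1 and Hbb-bs had no unique reads in any library, and of the other markers only Sptb had enough reads to be tested, at 0.135 to 0.650 CPM in WT and 2.33 to 6.14 CPM in YAP. Sptb was thus called higher in YAP (edgeR adjusted p = 0.0122), while Alas2 was called lower (edgeR adjusted p = 0.0275). Cyp2e1, a cytochrome P450 of hepatocytes, had the same 5 libraries highest, in the same order, as the 3′ reads, at 10197, 3435 and 6304 CPM in WT, 249, 370 and 328 CPM in YAP, and 802, 5856 and 3072 CPM in YAP_Lsd1ko, and was called lower in YAP (edgeR adjusted p = 0.00516). None of the other hepatocyte markers read had this full order, but Cps1 came close. Its highest libraries were WT replicates 1 and 3, YAP_Lsd1ko replicate 2 and WT replicate 2 (16457, 13614, 11790 and 11731 CPM). These followed the order of the 3′ reads, and YAP replicate 1 came next (9548 CPM). Ttr had the same 5 libraries highest as Cyp2e1, in another order. Alb was highest in YAP replicate 1 (186692 CPM) and lowest in the library labelled YAP_Lsd1ko replicate 2 (83664 CPM). The part of erythroid cells or hepatocytes in the Mcm10 result was not tested.

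Polymerase and primase genes were above WT in 8 of 9 cases, and Pola1, Prim2 and Pole rose. Pola1, the catalytic subunit of polymerase alpha, was read at 24.4, 34.1 and 30.5 CPM in WT, 85.4, 60.7 and 77.6 CPM in YAP, and 52.1, 33.2 and 49.2 CPM in YAP_Lsd1ko. The WT libraries were close together and the lowest YAP library was well above them, which gave the smallest adjusted p of all members (2.51-fold, log2 1.33, SE 0.21, edgeR adjusted p = 0.00376). Its promoter is the first printed above. Prim2, the large primase subunit, was read at 7.48, 8.39 and 9.73 CPM in WT, 20.7, 14.3 and 19.2 CPM in YAP, and 10.7, 8.60 and 12.6 CPM in YAP_Lsd1ko (2.11-fold against WT, edgeR adjusted p = 0.00934). Pole, the catalytic subunit of the leading strand polymerase epsilon, was read at 9.91, 25.8 and 16.1 CPM in WT, 68.6, 35.1 and 51.6 CPM in YAP, and 33.1, 11.2 and 22.7 CPM in YAP_Lsd1ko (2.99-fold against WT, edgeR adjusted p = 0.0405). For all 3 genes the YAP libraries lay above every library of the other groups.

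The exception in this role was Pold2, an accessory subunit of polymerase delta. It stood at 12.4, 10.2 and 10.8 CPM in WT, 11.3, 11.2 and 10.5 CPM in YAP, and 11.3, 15.9 and 14.3 CPM in YAP_Lsd1ko. Its YAP and WT libraries overlapped fully (log2 -0.02, SE 0.17). Pold2 was highest in the library labelled YAP_Lsd1ko replicate 2, where most members had their lowest level within the YAP_Lsd1ko group. Pold1, the catalytic subunit of the same enzyme, went from 5.68 ± 1.95 CPM in WT to 17.3 ± 6.39 CPM in YAP (SD, n = 3; 3.03-fold, edgeR adjusted p = 0.0529). The remaining subunits, Pola2, Prim1, Pold3 and Pole2, had estimates of 1.49-fold to 2.48-fold without overlap between YAP and WT, and none was called by edgeR, while DESeq2 called Pold3 and Prim1 higher.

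Of the clamp and its loader, edgeR called Pcna higher and DESeq2 called Pcna and Rfc4. Pcna, the clamp that tethers polymerases to DNA, was read at 28.9, 43.0 and 35.1 CPM in WT, 90.0, 58.3 and 72.4 CPM in YAP, and 48.9, 42.8 and 45.9 CPM in YAP_Lsd1ko. Pcna rose by 2.06-fold against WT (log2 1.04, SE 0.19, edgeR adjusted p = 0.00664), and no YAP library fell within the range of another group. Of the reads on its junctions, 38.6% mapped to several places, as is known for genes with processed copies, and were left out. With those reads added Pcna was still called (edgeR adjusted p = 0.0112). The share was 48.8% for Rpa3, 24.1% for Uhrf1 and 19.8% for Mcm7, and 15.2% or less for every other member. The loader subunits were uneven. Rfc4 had an estimate of 2.08-fold (edgeR adjusted p = 0.0539) and Rfc3 of 1.46-fold, both without overlap between YAP and WT. Rfc5 (1.59-fold), Rfc1 (1.11-fold) and Rfc2 (1.01-fold) overlapped between these groups. Rfc1, the large subunit of the loader, was read at 61.9 to 66.5 CPM in WT and 64.1 to 74.1 CPM in YAP.

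Single-stranded DNA binding and lagging strand genes showed the same unevenness. Rpa1, the large subunit of replication protein A, was read at 58.2, 64.3 and 62.5 CPM in WT, 101, 88.3 and 89.9 CPM in YAP, and 85.4, 67.5 and 77.7 CPM in YAP_Lsd1ko. The 3 groups did not overlap anywhere, with YAP_Lsd1ko between the others. Rpa1 rose by 1.51-fold in YAP against WT (log2 0.60, SE 0.12, edgeR adjusted p = 0.0101), the smallest fold of the called members. Rpa2, the middle subunit, was read at 11.9, 20.1 and 16.6 CPM in WT, 31.2, 20.6 and 23.5 CPM in YAP, and 15.2, 9.76 and 14.8 CPM in YAP_Lsd1ko. Its YAP libraries were above both other groups, narrowly so against WT (1.55-fold, edgeR adjusted p = 0.108). Lig1, the ligase that seals Okazaki fragments, went from 14.2 ± 5.95 to 42.9 ± 11.4 CPM (SD, n = 3; 3.01-fold, edgeR adjusted p = 0.0524). Dna2, a nuclease that trims the fragments, was lower in all YAP libraries, at 8.96 to 10.1 CPM against 11.9 to 12.3 CPM in WT (1.28-fold lower, edgeR adjusted p = 0.186). Rpa3 had 281 reads in all libraries and Fen1, the flap nuclease, 95, and neither differed beyond its spread.

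All 4 genes of replication-coupled chromatin lay above WT without overlap, and Chaf1b was called. Chaf1b, the middle subunit of the chromatin assembly factor that places histones on new DNA, was read at 2.60, 5.99 and 5.40 CPM in WT, 17.3, 9.42 and 12.4 CPM in YAP, and 5.45, 2.65 and 5.82 CPM in YAP_Lsd1ko. Its YAP libraries were above all others, and WT and YAP_Lsd1ko covered the same range (2.77-fold against WT, log2 1.47, SE 0.38, edgeR adjusted p = 0.0291). Against YAP, YAP_Lsd1ko was 2.76-fold lower with an edgeR adjusted p of 0.0906, the smallest of the members in that comparison. Dnmt1, the maintenance DNA methyltransferase, was read at 30.2, 53.2 and 44.2 CPM in WT, 83.6, 72.2 and 69.0 CPM in YAP, and 65.6, 33.4 and 48.0 CPM in YAP_Lsd1ko. The YAP libraries of Dnmt1 were above all others, at 1.76-fold over WT (edgeR adjusted p = 0.0615). Uhrf1, which recruits Dnmt1 to new DNA, had the second largest estimate of all members (3.92-fold, edgeR adjusted p = 0.0622), and Chaf1a, the large subunit of the assembly factor, 2.01-fold.

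Of the fork protection pair, Timeless rose. Timeless, which couples the helicase to the polymerases, was read at 4.06, 8.54 and 5.94 CPM in WT, 29.7, 13.8 and 19.9 CPM in YAP, and 16.6, 6.28 and 6.79 CPM in YAP_Lsd1ko. All YAP libraries were above WT, and YAP_Lsd1ko replicate 1 lay within the YAP range (3.41-fold against WT, log2 1.77, SE 0.46, edgeR adjusted p = 0.0298). Tipin, its binding partner, was read at 11.2, 14.2 and 10.8 CPM in WT, 21.5, 14.5 and 20.6 CPM in YAP, and 19.2, 11.7 and 13.7 CPM in YAP_Lsd1ko. YAP replicate 2 was only just above the highest WT library, and Tipin was not called (1.56-fold, edgeR adjusted p = 0.0842).

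**Figure D3:**
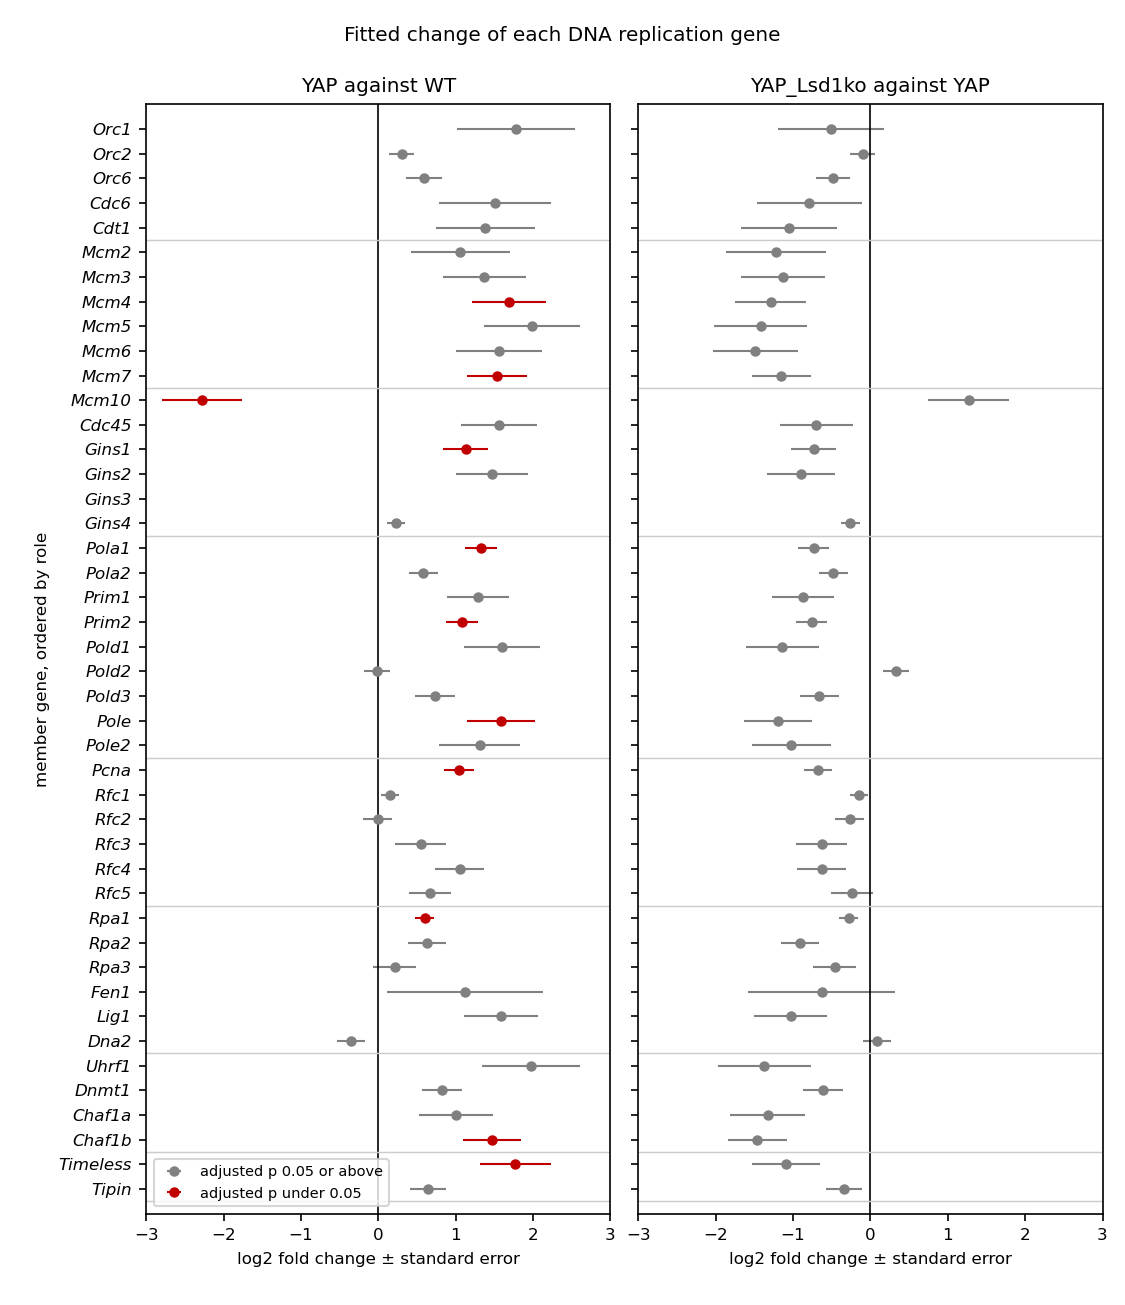
Fitted log2 fold change with its standard error for 43 members in YAP against WT (left) and in YAP_Lsd1ko against YAP (right), ordered by role; Gins3 was not tested. Red points passed an edgeR adjusted p under 0.05: 10 to the right and Mcm10 to the left in the first panel, and none in the second, where 40 points lie left of 0.

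The second comparison set livers with the transgene and the Lsd1 knockout against livers with the transgene alone. Yap1 reads were also lower in YAP_Lsd1ko than in YAP (log2 -0.98, edgeR adjusted p = 0.0213). The knockout and a lower Yap1 level therefore cannot be told apart in this comparison. None of the 43 members was called in YAP_Lsd1ko against YAP by edgeR, where 1.75% of all genes were called higher and 0.367% lower. At an unadjusted p under 0.05 there were 20 members, against 18.6% of all genes. The estimate was below 0 for 40 members (50.9% of all genes), with a median of -0.73 beside -0.01 over all genes. All YAP_Lsd1ko libraries lay below all YAP libraries for 24 members (11.5% of all genes). DESeq2 called 5 lower, Chaf1b, Pcna, Pola1, Prim2 and Rpa2, against 1.66% of all genes. Their DESeq2 estimates ran from log2 -1.48 for Chaf1b (DESeq2 adjusted p = 0.00918) to -0.68 for Pcna (DESeq2 adjusted p = 0.0271).

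Single libraries of both groups moved these values. Without the library labelled YAP_Lsd1ko replicate 2, whose Kdm1a was at the WT level, the median over the members was -0.57 and 8 members had an unadjusted p under 0.05. Without YAP replicate 1 the median was -0.56 and 5 members had an unadjusted p under 0.05, and without YAP_Lsd1ko replicate 3 these values were -0.80 and 7. Without YAP_Lsd1ko replicate 1, the library with the lowest Kdm1a, the median was -0.88 and 3 members were called lower, against 1.73% of all genes in that fit: Chaf1a (log2 -1.96), Pold1 (log2 -1.89) and Timeless (log2 -1.69). Only Mcm10, Pold2 and Dna2 had estimates above 0 in this comparison. Mcm10 was at 1.27 and Pold2 at 0.33 on the log2 scale, and neither was called.

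Against WT, YAP_Lsd1ko livers had no member called by edgeR or by DESeq2. Of all genes, edgeR called 1.12% higher and 0.927% lower, and DESeq2 2.83% higher and 2.65% lower. The median estimate of the members was 0.32, beside 0.00 over all genes, and 33 members lay above 0 (49.8% of all genes). Pola1 (1.51-fold) and Rpa1 (1.25-fold) had an unadjusted p under 0.05 (15.2% of all genes), and Rpa1 was the 1 member whose YAP_Lsd1ko libraries all lay above WT (7.68% of all genes). Without the library labelled YAP_Lsd1ko replicate 2, Pola1 was called (log2 0.77, edgeR adjusted p = 0.0400), against 3.47% of all genes called higher in that fit. Without WT replicate 1 the median fell to 0.09, and without YAP_Lsd1ko replicate 1 to 0.06, so the size of this difference rested on those libraries.

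Per junction, Pcna had the highest level of the members in WT, 7.14 ± 1.41 CPM per junction (SD, n = 3). It was followed by Mcm10 with 3.84 ± 2.18, Rpa1 with 3.42 ± 0.196, Gins4 with 3.36 ± 0.0987, Rfc2 with 3.34 ± 0.675, Mcm6 with 3.08 ± 2.03 and Rfc1 with 2.65 ± 0.104. From Mcm10 to Mcm6 the means lay within the spread of their neighbours, so their order is not resolved. The lowest were Orc1 at 0.0565 ± 0.0497, Gins3 at 0.145 ± 0.150, Timeless at 0.210 ± 0.0777 and Pold1 at 0.219 ± 0.0750 CPM per junction. In YAP, Pcna stayed highest at 14.7 ± 3.18 CPM per junction and Mcm6 was next at 9.14 ± 2.96, while Mcm10 was down at 0.789 ± 0.0221. The Mcm10 levels average over the unequal blocks described above. Taken as the median over its read junctions, its WT level was 1.55 CPM per junction, below those of Rpa1 (3.48), Gins4 (3.25) and Rfc2 (3.15) on the same measure, so its place in this order rests on the 3′ block.

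Reads along the other members were checked for the kind of split seen in Mcm10. In the test of junction usage with edgeR's diffSpliceDGE, none of 34 members with enough junctions was called in YAP against WT (0.115% of 7801 genes) or in YAP_Lsd1ko against YAP (0.0385%), and none had an unadjusted Simes p under 0.05. The smallest Simes p in YAP against WT belonged to Prim2 (0.222, over 5 junctions) and Pola1 (0.227, over 29 junctions). Mcm10 had a Simes p of 0.443 over the 10 junctions that passed the read filter, which dropped most of the promoter side. With every junction of at least 10 reads, 18 in Mcm10, its Simes p was 0.0399, and 1 after adjustment over all genes.

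Next, 41 members with at least 4 reference junctions were split at the middle into leading junctions, towards the promoter, and as many trailing junctions. This split was chosen after the Mcm10 values were seen, and it gives ratios of group means without a test. Both sides were above 0 for YAP over WT in 37 members and below 0 in 1, Dna2. They lay on opposite sides of 0 in 3 members. In Mcm10 the log2 ratio was 0.28 over the leading junctions and -2.99 over the trailing ones, while Pold2 (0.14 and -0.15) and Rfc2 (-0.12 and 0.10) were near 0 in both. In WT the trailing junctions of Mcm10 had 13.0 times the reads of the leading ones, and in YAP 1.35 times. Among the other members this WT ratio ran from 0.649 to 8.77, the highest being Pcna, with a median of 1.30.

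**Figure D4:**
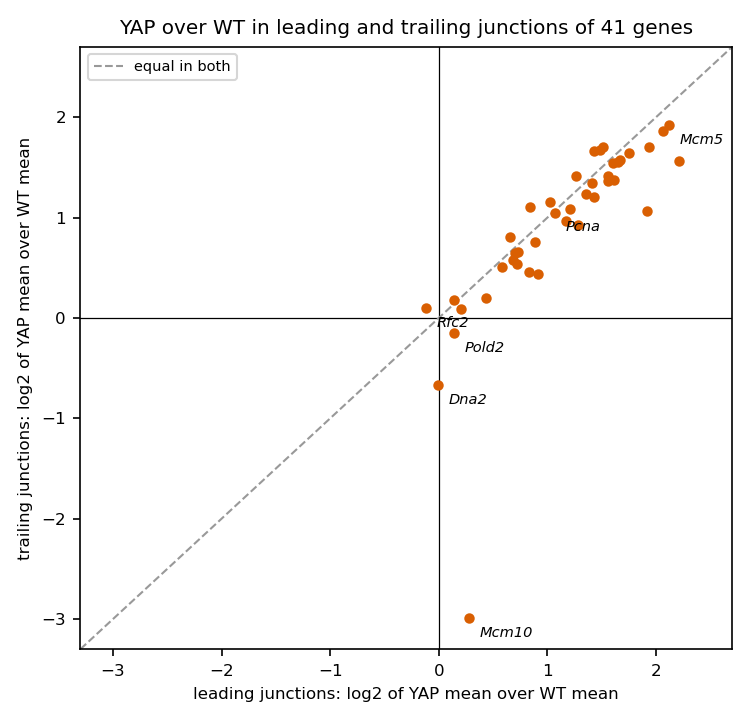
Log2 of the YAP mean over the WT mean in the leading (x axis) and the trailing (y axis) reference junctions of 41 members; each point is a gene and the dashed line marks equal values. Mcm10 alone lies far from the line, at 0.28 and -2.99.

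Other genes of S phase were read beside the members, from lists chosen with earlier results known. Of 37 other replication genes tested, 5 were called higher in YAP than in WT and 1 lower, beside 7.44% and 10% of all genes, and their median estimate was 0.50. Clspn, a fork-associated mediator of the checkpoint, rose from 1.76 ± 1.12 to 8.76 ± 1.65 CPM (SD, n = 3; 4.90-fold, edgeR adjusted p = 0.0127). Mms22l, which acts at stalled forks, rose by 3.20-fold and Rnaseh2a, the catalytic subunit of RNase H2, by 1.76-fold. Rnaseh2c, another subunit of RNase H2, was the one that fell, by 1.57-fold (edgeR adjusted p = 0.0338). Of 18 genes of the E2F and RB list tested, Rb1 (1.40-fold) and E2f1 (3.30-fold) rose and none fell. E2f1, an activator of S phase genes, was near the threshold with an edgeR adjusted p of 0.0497. Of 11 genes of deoxynucleotide supply, Dck, a salvage kinase, rose by 1.93-fold. In these last 2 lists the share called higher was near that of all genes.

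Genes of mitosis were not called. Of 22 tested, 20 lay above 0 in YAP against WT with a median of 0.73. None passed edgeR's test, 2 had an unadjusted p under 0.05 (34.4% of all genes), and DESeq2 called 2 higher, Ect2 and Kif23 (10.7% of all genes). They summed to 70.9, 435 and 260 CPM in WT, 414, 496 and 483 CPM in YAP, and 642, 125 and 465 CPM in YAP_Lsd1ko, so that WT replicate 2 lay within the YAP range. In YAP_Lsd1ko against YAP their median was 0.00, beside -0.73 for the replication genes, and the difference between the lists was not tested. Ect2, a regulator of cytokinesis, and Kif23, a motor of the midbody, had edgeR estimates of 3.77-fold (adjusted p = 0.0607) and 2.91-fold (adjusted p = 0.0970). WT replicate 1 and the library labelled YAP_Lsd1ko replicate 2 had the lowest sums of their groups in this list, as for the replication genes without Mcm10.

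**Figure D5:**
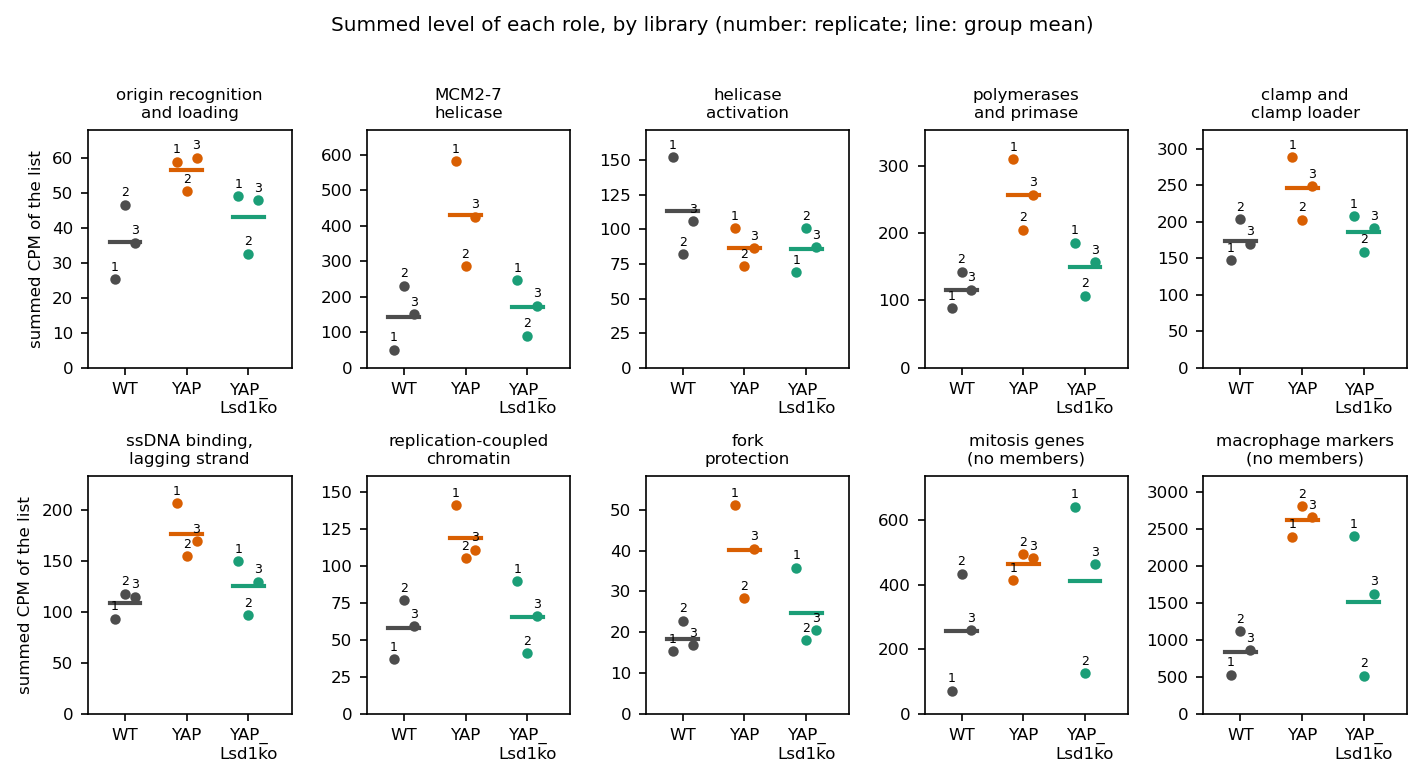
Summed CPM of the members of each role, and of 22 mitosis genes and 10 macrophage markers, in each library. Points are libraries with their replicate number and lines are group means; axes start at 0 and differ between panels. YAP lies above WT in most panels, helicase activation being the exception because of Mcm10, and YAP_Lsd1ko lies lower than YAP in most roles. For mitosis genes the YAP_Lsd1ko libraries spread from below to above the YAP libraries.

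Summed macrophage, biliary, lymphocyte and neutrophil markers were higher in every YAP library than in every WT library. Within YAP, where the members summed to 1741, 1107 and 1400 CPM, biliary and neutrophil sums were also highest in replicate 1 and lowest in replicate 2. Macrophage and lymphocyte sums ran the other way, lowest in YAP replicate 1 and highest in YAP replicate 2. The 10 macrophage and Kupffer cell markers summed to 527 to 1120 CPM in WT, 2396 to 2808 CPM in YAP and 515 to 2399 CPM in YAP_Lsd1ko, and 5 of 9 tested were called higher in YAP than in WT. The 8 biliary markers summed to 84.2 to 138 CPM in WT, 1088 to 1350 CPM in YAP and 198 to 713 CPM in YAP_Lsd1ko, with 2 of 6 called higher, Spp1 and Pkhd1. Most of this sum was Spp1, at 44.2 to 97.8 CPM in WT and 950 to 1146 CPM in YAP. Krt19 and Epcam overlapped between YAP and WT and were not called, and Krt7 and Sox9 had too few reads to be tested. The 10 lymphocyte markers summed to 46.0 to 155, 213 to 315 and 50.4 to 247 CPM in the same groups, with 1 of 6, Cd3d, called higher. Most of this sum was Ptprc, at 39.7 to 145 CPM in WT and 205 to 298 CPM in YAP, which edgeR did not call. The other lymphocyte markers were read at 5.10 CPM or less in every library. The 7 neutrophil markers summed to 2.11 to 7.49, 15.5 to 19.4 and 2.48 to 15.3 CPM, with 2 of 3 called higher and Ly6g at 0 in every library. Endothelial sums were 766 to 890 CPM over all libraries, with Cdh5 and Lyve1 called higher and Eng lower. Stellate cell sums were 647 to 1098 CPM in WT, 378 to 720 CPM in YAP and 441 to 733 CPM in YAP_Lsd1ko, with Acta2 called higher in YAP and Reln lower. Hepatocyte markers summed to 118149 to 209740 CPM, most of it Alb at 83664 to 186692 CPM. Of these 8 markers, 6 had estimates below 0 in YAP against WT, and Ttr (log2 -2.29) and Cyp2e1 (log2 -4.40) were called lower. The part of these cells in the levels of the replication genes was not tested.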

How the data were processed

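Total RNA from liver was depleted of ribosomal RNA and made into stranded TruSeq libraries, per the labels' protocols. The submitters' processing notes name STAR and build mm10, without versions. STAR's annotation was not given in the sources used here. Values as deposited are unnormalized counts of reads per splice junction, 1 STAR junction table per library. Uniquely mapped reads (6516711 to 9267028 per library) were summed over annotated junctions that match introns of exactly 1 gene in GENCODE M21 (GRCm38). A read that crosses several junctions counts at each, so counts at neighbouring junctions are not independent. Relative counting error is largest for members with few reads.

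Groups came from the sample titles. All 9 libraries entered 1 fit with edgeR 4.0.16 (R 4.3.3): filterByExpr kept 10897 genes, scaling was TMM, the test was the robust quasi-likelihood test, and p-values were adjusted by Benjamini-Hochberg over all genes tested, with a threshold of 0.05. The SE is the log2 fold change over the square root of F. Junction usage was tested with diffSpliceDGE. Level per junction is the mean CPM over introns of the protein-coding transcript with most introns. DESeq2 1.42.0, other scalings and filters, and fits without each library were alternatives, and the fits were tested on simulated data. Named members are those called in any comparison and, per role, those with the smallest p in either YAP comparison and the highest level per junction in WT. The members and gene lists were chosen with earlier results of these data known.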

Additional observations from a re-analysis of the deposited data

Results flagged for a closer look

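One signal lay outside the annotated junctions. A junction that the annotation lacks, inside Rfc1 on chromosome 5 from 65278821 to 65279456 (GRCm38), had 22 unique reads in YAP_Lsd1ko (7, 5 and 10 per library) against 8 in WT (1, 5 and 2). It stood out because, scaled to library size, every YAP_Lsd1ko library was above every WT library. In reads the groups meet at 5, the YAP libraries (5, 6 and 5 reads) overlap both, and no test of the difference was made. Unannotated junctions inside members numbered 167, of which 14 had more than 3 reads, and together they held 359 reads beside 71594 on annotated junctions of the members.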

How the results depend on the processing

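Estimates for the 17 members named by rule mostly kept their direction, and the number of calls did not. In YAP against WT the main count of 11 members became 23 with DESeq2, 24 with library size only, 22 with a fit of the 2 groups only and 5 with a replicate block, and ranged from 0 to 22 over fits that left out libraries. The samples share only a replicate number: same-numbered libraries of different groups correlated between -0.656 and 0.341 in their deviations from group means, so the block is no pairing by design. In YAP_Lsd1ko against YAP the count of 0 became 5 with DESeq2 and ranged from 0 to 3 without single libraries, and in YAP_Lsd1ko against WT from 0 to 1. The Mcm10 log2 estimate turned to 0.90, -0.49 and 0.41 in the 3 comparisons, in the order given, with promoter-side junctions only, an alternative chosen after seeing the data. Pold2 in YAP against WT turned to 0.30 with library size only, a scale that shifts all genes by 0.31, and ranged from -0.08 to 0.08 without single libraries. In YAP_Lsd1ko against WT, Chaf1b was at -0.06 with the replicate block. Leaving out libraries gave ranges that crossed 0 for Orc6 (-0.06 to 0.33), Mcm6 (-0.33 to 0.62), Pole (-0.01 to 0.78), Dnmt1 (-0.06 to 0.42) and Chaf1b (-0.26 to 0.26), none of which was called there. The causes were not tested. No member was called for junction usage under any alternative run. Members with few reads, such as Gins3, Fen1 and Orc1, limit what could be called.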
